A study of Mus musculus with 39 samples.

Results

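Genes of the interleukin-10 family, 9 in all, were followed across PB2 mouse breast tumors: the cytokines Il24, Il19, Il20 and Il10, and the receptor chains Il20ra, Il20rb, Il22ra1, Il10ra and Il10rb. They were taken by symbol, with case ignored, and all 9 were among the 20520 genes of the table. Il24 was chosen by its measured expression, which was restricted to p95HER2 tumors at both days, so its difference between the constructs is described here without a test. The other 8 genes were added as its relatives and as the chains of the receptors. The filter on low values, at least 9 libraries with 1 CPM or more (CPM, a gene's reads scaled to the same total in every library), passed 13650 genes, 5 of them from the family: Il24, Il20ra, Il20rb, Il10ra and Il10rb. Il19, Il20, Il10 and Il22ra1 did not reach 1 CPM in any library.

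The tumors were xenografts of PB2 cells with 1 of 2 constructs: FL-HER2, the full-length receptor, or p95HER2, a shortened form without most of the extracellular part. Day 10 and day 22 after implantation were sampled, with 20 poly(A) RNA libraries at day 10 (10 per construct) and 19 at day 22 (9 with FL-HER2, 10 with p95HER2). No treatment is labelled, all groups carry a HER2 construct, and no group without one was analysed here. The age and strain of the host mice, the promoter behind each construct and whether each cell population is 1 clone are not stated in the labels.

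Each library held 21772259 to 44427621 reads on genes, so that 1 CPM stood for at least 21.8 reads. Erbb2, the mouse gene closest to the constructs, was higher in p95HER2 at day 10 (346 ± 62.3 against 184 ± 29.4 CPM, SD, n = 10 and 10) and at day 22 (185 ± 26.3 against 113 ± 25.2 CPM, n = 10 and 9). In 11 libraries skin epidermis markers stood apart: 2 of 10 FL-HER2 and 5 of 10 p95HER2 at day 10, and 1 of 9 and 3 of 10 at day 22. Markers of skeletal muscle were lower in p95HER2 at day 10 for 20 of 20 genes, against 26.1% of all tested genes. They took 1.84% of reads on average in FL-HER2 and 0.312% in p95HER2. Of the FL-HER2 libraries at day 10, 8 of 10 have a 5-digit tumor number in their column name and every other library of the series has a 3-digit one, for a reason that is not stated. For replicate 8 of that group the number in the title is 1 digit shorter than in the description, which the column name follows. Whether the longer numbers mean pooled tumors was not tested. Nothing in the labels says that libraries came from separate animals, so a p-value here reflects only how these samples spread, and part of that may be technical. In bulk tumor RNA, fewer cells of a type and less RNA per cell cannot be told apart.

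IL-19, IL-20 and IL-24 form the IL-20 subfamily of cytokines, which signal through a pair of receptor chains, Il20ra with Il20rb. IL-20 and IL-24 can use a second pair, in which Il22ra1 takes the place of Il20ra. IL-10 itself binds Il10ra, found mainly on leukocytes, and needs Il10rb, a widely expressed chain that the receptors for IL-22 and the lambda interferons share. Both kinds of receptor act through Janus kinases and mostly STAT3. Epithelial cells such as keratinocytes are the best known targets of the IL-20 subfamily, and myeloid cells those of IL-10.

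Il24, Il20, Il19 and Il10 lie side by side on mouse chromosome 1. In the GENCODE M21 annotation of mm10, Il24 spans chr1:130882074-130887454 on the minus strand, Il20 spans chr1:130906985-130911451 and Il19 spans chr1:130932656-130940115, both also on the minus strand. Il10 follows at chr1:131019845-131024974 on the plus strand. The receptor genes are spread over 4 chromosomes: Il20ra at chr10:19712570-19760053, Il20rb at chr9:100457719-100486788, Il22ra1 at chr4:135728172-135752140, Il10ra at chr9:45253837-45269149 and Il10rb at chr16:91406164-91425834.

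RefSeq promoter windows of build GRCm38.p6 were matched for 5 of the 9 genes: Il19, Il20, Il20ra, Il20rb and Il22ra1. The stretches before Il20ra and Il22ra1 are shown because these 2 genes encode the alternative alpha chains that pair with Il20rb, and their levels differed widely in these tumors. Both are on the plus strand and are written 5′ to 3′. Capitals mark a match to TGANTCA, the letters bound by AP-1, in a search of both strands over the 250 bases before each start.
Il20ra, chr10:19712337-19712569: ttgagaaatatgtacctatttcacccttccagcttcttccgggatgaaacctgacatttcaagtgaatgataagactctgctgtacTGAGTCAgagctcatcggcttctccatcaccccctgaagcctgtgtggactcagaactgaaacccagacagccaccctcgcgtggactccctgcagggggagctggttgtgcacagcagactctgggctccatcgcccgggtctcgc
Il22ra1, chr4:135727909-135728158: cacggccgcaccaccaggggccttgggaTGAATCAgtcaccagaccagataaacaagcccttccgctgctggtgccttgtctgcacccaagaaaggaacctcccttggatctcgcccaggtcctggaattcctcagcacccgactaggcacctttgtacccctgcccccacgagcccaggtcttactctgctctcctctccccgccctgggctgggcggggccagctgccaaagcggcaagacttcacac
The match began 164 bases before the RefSeq start of Il20ra and 222 bases before that of Il22ra1. The printed Il20ra stretch stops at the GENCODE start and holds 233 of the 250 bases searched. None of the windows of Il19, Il20 and Il20rb held it, and 6.75% of all 32851 mouse promoter windows of this length did. By the GENCODE spans, the whole Il20rb window lies inside its gene, and only 95 of the 250 Il20 bases lie before its gene. A STAT motif, TTCNNNGAA, was found before Il19 and before none of the other 4, against 7.02% of all windows. These are matches of letters and not binding sites, and no factor's binding was measured.

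Il24 encodes the secreted cytokine IL-24, which in humans is also known as a melanoma differentiation product. In FL-HER2 tumors it had 12 reads in all at day 10, spread over 4 of the 10 libraries with 2 to 4 reads each, and 0 reads in 9 of 9 libraries at day 22. In p95HER2 tumors at day 10 it ran from 2.04 CPM (74 reads) over a median of 5.94 to 17.2 CPM (588 reads). At day 22 it ran from 0.902 CPM (32 reads) over a median of 2.08 to 3.55 CPM (113 reads). Every p95HER2 library thus lay above every FL-HER2 library of its day, with a wide gap between the sets. The pattern was the one Il24 was picked for, and its size is a description. Over pooled reads, Il24 was 216-fold higher in p95HER2 at day 10. This ratio rests on 12 FL-HER2 reads and leaves out the spread between libraries. At day 22 Il24 was at least 208-fold higher, measured against a floor of 3 reads over the whole FL-HER2 group, or 0.0105 CPM. The 4 FL-HER2 libraries with Il24 reads were all among those with 5-digit tumor numbers.

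Within p95HER2 tumors Il24 fell from day 10 to day 22, a comparison that its choice did not use. The mean was 7.48 ± 4.69 CPM at day 10 and 2.20 ± 0.982 CPM at day 22 (SD, n = 10 and 10). At day 10, replicate 1 with 17.2 CPM and replicate 9 with 14.1 CPM stood above the rest, which reached 8.03 CPM. All 10 day 22 libraries were below the day 10 median and 5 of them were below every day 10 library, while the ranges overlapped between 2.04 and 3.55 CPM. On the log2 scale the fall was -1.72 ± 0.35 (SE; 95% interval -2.43 to -1.02), with an adjusted p of 0.000117 in limma over the 13650 genes. It was as large without the 11 libraries high in skin markers (-1.92, adjusted p = 0.00338). It was also called with each library left out in turn (-1.91 to -1.56). Erbb2 fell in the same comparison (-0.96 ± 0.10, SE, adjusted p = 1.59e-09), and in FL-HER2 too (-0.84 ± 0.11, adjusted p = 3.04e-08), and its part in the fall of Il24 was not tested. The libraries high in skin markers were spread among the others: at day 10 the Il24 median was 5.69 CPM in the 5 libraries high in them and 5.97 CPM in the other 5. At day 22 the medians were 3.12 CPM in 3 libraries and 2.02 CPM in 7.

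**Figure D1:**
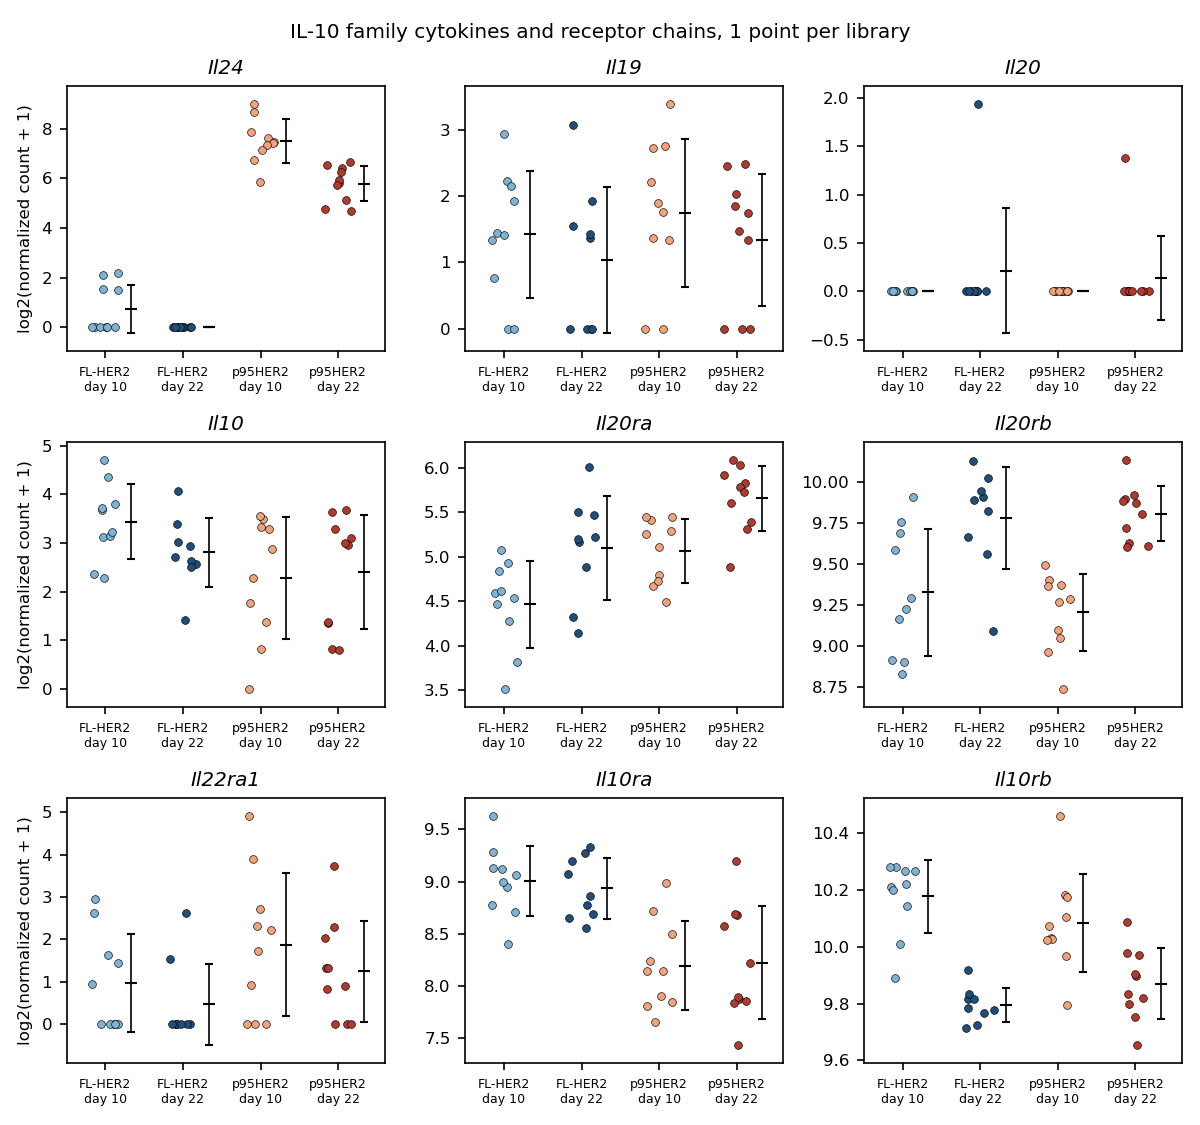
Deposited log2(normalized count + 1) of the 9 genes in each of the 39 libraries (vertical axes, scaled to each gene), by construct and day (horizontal axes). Points are libraries and the bars beside them give the mean and SD. Il24 is at or near 0 in all FL-HER2 libraries and high in all p95HER2 libraries, and Il10ra is the receptor chain that sits lower in p95HER2 at both days.

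The 3 other cytokines were barely detected. Il19, a neighbour of Il24 that uses the same receptor, had group medians of 0.0577 CPM (FL-HER2 day 10), 0.0585 (FL-HER2 day 22), 0.0900 (p95HER2 day 10) and 0.0739 (p95HER2 day 22), and its highest value was 0.322 CPM. Il20 had 5 reads in all, 3 in 1 FL-HER2 day 22 library and 2 in 1 p95HER2 day 22 library. No difference in Il19 or Il20 between groups was detectable at this depth. Per kilobase of exon, the 4 cytokines can be set side by side. Il24 made up 90.4 to 100% of their sum in the p95HER2 day 10 libraries (median 96.1%) and 77.6 to 94.4% at day 22 (median 84.7%). In FL-HER2 day 10 libraries its share ran from 0 to 29.6% with a median of 0.

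Il10, the cytokine that restrains myeloid and T cell responses, was low in every group. In FL-HER2 it ran from 0.122 over a median of 0.338 to 0.847 CPM at day 10, and from 0.0623 over 0.197 to 0.585 CPM at day 22. In p95HER2 it ran from 0 over 0.182 to 0.371 CPM at day 10, and from 0.0280 over 0.250 to 0.428 CPM at day 22. The groups overlapped, and on the deposited log2 scale 4 of the 10 p95HER2 day 10 libraries were below every FL-HER2 day 10 library. Il10 did not pass the filter. In a fit of all 20520 genes without one, Il10 was lower in p95HER2 at day 10 (log2 difference -1.16 ± 0.44, SE, adjusted p = 0.0448), where 29.2% of all genes were called. At day 22 the log2 difference was -0.40 ± 0.45 (adjusted p = 0.751), and neither change with time was called.

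Of the receptor chains, Il20ra, Il20rb, Il10ra and Il10rb were detected in all 39 libraries. Il22ra1 was at 0 in 5 of 10 FL-HER2 libraries at day 10 and 7 of 9 at day 22, and in 3 of 10 p95HER2 libraries at each day. Per kilobase of exon, Il10rb was the most abundant at day 10 in FL-HER2 (10.2 ± 0.995 CPM per kilobase, SD, n = 10), followed by Il20rb (5.33 ± 1.69), Il10ra (5.01 ± 1.13), Il20ra (0.308 ± 0.104) and Il22ra1 (0.0223). Il20rb and Il10ra did not differ there beyond their spread. In p95HER2 at day 10 Il10rb stood at 9.98 ± 1.20 CPM per kilobase, Il20rb at 4.94 ± 0.866, Il10ra at 3.03 ± 0.969, Il20ra at 0.480 ± 0.122 and Il22ra1 at 0.0792. Il24 itself, at 5.40 ± 3.38 CPM per kilobase, overlapped Il20rb in that group. At day 22 in p95HER2 it stood at 1.59 ± 0.709, between Il10ra (3.32 ± 1.33) and Il20ra (0.763 ± 0.178).

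**Figure D2:**
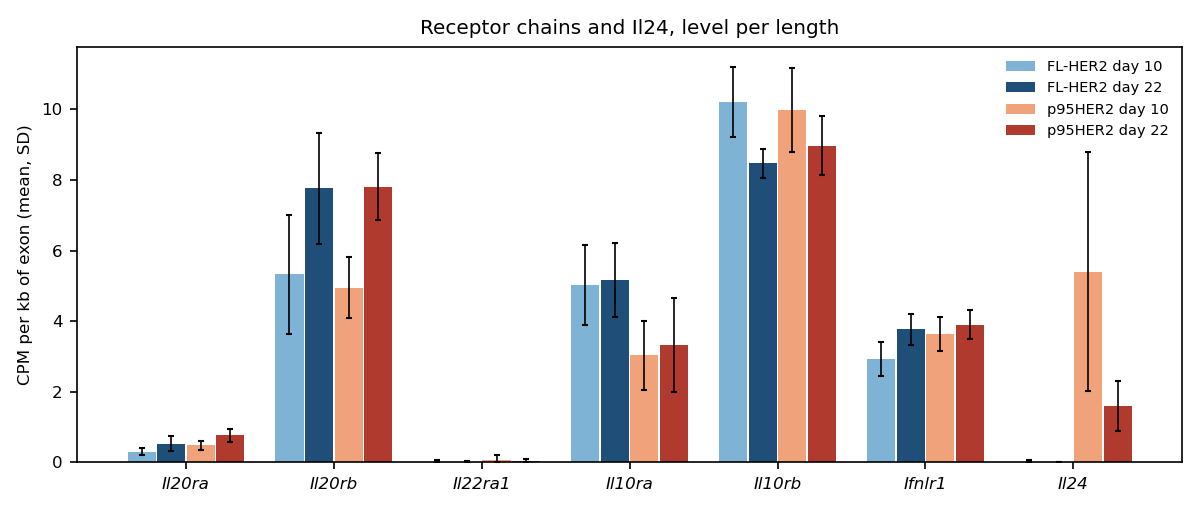
CPM per kilobase of exon (vertical axis) of the receptor chains, the related chain Ifnlr1 and Il24, as means with SD over 9 or 10 libraries per group. Il10rb and Il20rb are the tallest receptor bars in every group, Il20ra stays below 1 CPM per kilobase, and Il24 has a visible bar only in p95HER2.

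Between constructs, 2 of the 4 tested receptor chains differed at day 10: Il20ra was higher in p95HER2 and Il10ra lower. Over all 13650 genes limma called 41.3% there, 15.2% higher and 26.1% lower. At day 22, 1 of 4 differed (Il10ra, lower), where 4.52% of all genes were called, 2.98% higher and 1.54% lower. From day 10 to day 22, 3 of the 4 tested receptor chains changed in FL-HER2. In p95HER2 the same 3 of the 4 chains did, or 4 of the 5 tested family members when Il24 is included. Il24 reached 1 CPM only in p95HER2 libraries, so it is not counted in FL-HER2. The counts with and without Il24 are thus not alike, and only those of the chains compare the constructs. Il20ra and Il20rb rose and Il10rb fell in both constructs, and Il24 fell in p95HER2. With time, 51.4% of all genes were called in FL-HER2 (20.7% higher, 30.6% lower) and 35.2% in p95HER2 (16.6% higher, 18.6% lower). The p95HER2 effect itself changed between days for 0 of 4 chains in limma and for 0 of 4 at an unadjusted p under 0.05, against 19.6% of all genes called (13.5% higher, 6.2% lower). The counts rest on 4 or 5 genes, too few to set their shares apart from these backgrounds.

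**Figure D3:**
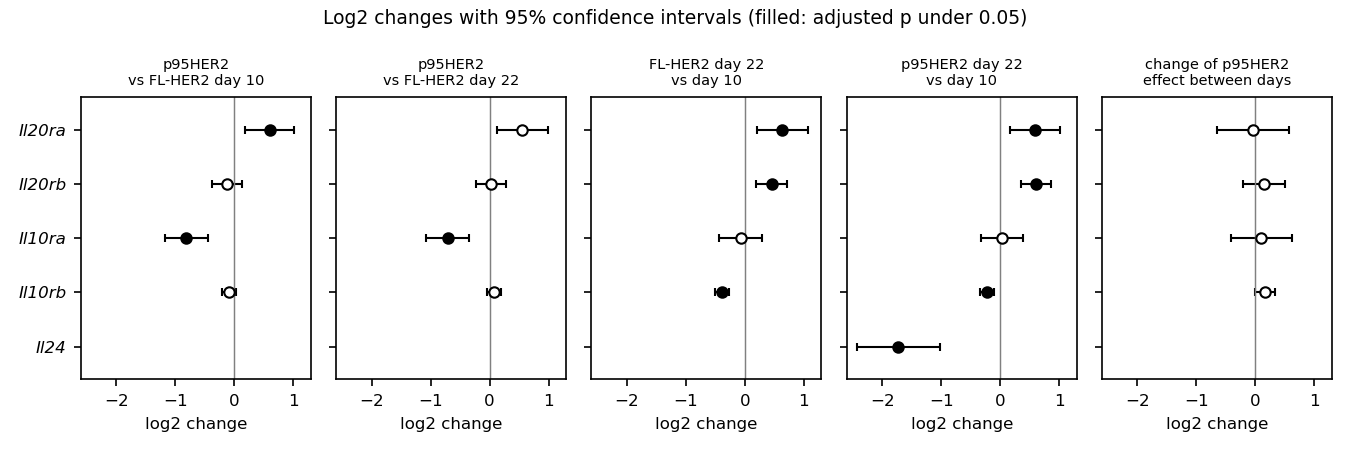
Log2 changes (horizontal axes) with 95% confidence intervals of the tested family members in the 5 comparisons, filled where the adjusted p was under 0.05. Il24 is drawn only for p95HER2 with time. Il10ra lies left of 0 at both days, and Il20ra and Il20rb lie right of 0 with time in both constructs.

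Il20ra, the alpha chain that lets cells bind IL-19, IL-20 and IL-24, was low and higher in p95HER2 at day 10. In FL-HER2 it ran from 0.348 over a median of 0.728 to 1.12 CPM at day 10, and from 0.620 over 1.26 to 2.34 CPM at day 22. In p95HER2 it ran from 0.743 over 1.25 to 1.52 CPM at day 10, and from 1.06 over 1.88 to 2.43 CPM at day 22. These are 12 to 89 reads per library. The ranges of the constructs overlapped at both days. On the deposited log2 scale, 9 of 10 p95HER2 libraries lay above the FL-HER2 median each time. The log2 difference was 0.60 ± 0.21 at day 10 (SE, adjusted p = 0.0204) and 0.56 ± 0.21 at day 22 (adjusted p = 0.141). With time Il20ra rose by 0.64 ± 0.21 in FL-HER2 (adjusted p = 0.0127) and by 0.59 ± 0.21 in p95HER2 (adjusted p = 0.0239). The day 10 difference was not called with the leukocyte marker score as a covariate (0.35, adjusted p = 0.335), with the muscle score as one (0.55, adjusted p = 0.109) or without the libraries high in skin markers (0.61, adjusted p = 0.0980). It was not called either with a term for the digits of the tumor number (0.84, adjusted p = 0.127).

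Il20rb, the chain common to both receptors of IL-24, was much more abundant than its partner and changed with time in both constructs. In FL-HER2 it ran from 14.4 over 20.6 to 34.6 CPM at day 10, and from 19.5 over 35.1 to 41.3 CPM at day 22. In p95HER2 it ran from 14.2 over 21.5 to 25.8 CPM at day 10, and from 27.6 over 33.3 to 40.8 CPM at day 22. All 10 p95HER2 day 22 libraries lay above all 10 of day 10, while the FL-HER2 days overlapped and 1 skin-high day 22 library (replicate 7, 19.5 CPM) lay below the day 10 median. The rise was 0.61 ± 0.12 in p95HER2 (SE, adjusted p = 0.000167) and 0.46 ± 0.13 in FL-HER2 (adjusted p = 0.00304). The constructs did not differ by the test at day 10 (-0.12, 95% interval -0.38 to 0.13, adjusted p = 0.447) or at day 22 (0.03, interval -0.23 to 0.29, adjusted p = 0.946). Per kilobase, the ratio of Il20rb to Il20ra had medians of 17.9 and 12.9 in FL-HER2 at day 10 and day 22, and of 10.2 and 10.5 in p95HER2.

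Il22ra1, the other alpha chain for IL-20 and IL-24 and a part of the IL-22 receptor, was near the limit of detection. It had a median of 0.0151 CPM in FL-HER2 at day 10, 0 at day 22, 0.103 in p95HER2 at day 10 and 0.0432 at day 22. The highest value was 0.968 CPM, or 32 reads, in p95HER2 day 10 replicate 5. It was detected in 11 of 11 libraries high in skin markers and in 10 of the 28 others, and the part of skin RNA in its level was not tested. The library with the highest value was not among the 11.

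Il10ra, the ligand-binding chain for IL-10, was lower in p95HER2 at both days. In FL-HER2 it ran from 12.2 over 17.0 to 26.4 CPM at day 10, and from 13.9 over 16.1 to 23.9 CPM at day 22. In p95HER2 it ran from 6.69 over 9.83 to 17.5 CPM at day 10, and from 6.31 over 9.82 to 21.3 CPM at day 22. The ranges overlapped. On the deposited log2 scale, 7 of 10 p95HER2 libraries at day 10 and 6 of 10 at day 22 were below every FL-HER2 library of that day. The log2 difference was -0.81 ± 0.18 at day 10 (SE, adjusted p = 0.000379) and -0.71 ± 0.18 at day 22 (adjusted p = 0.0174). With time it changed by -0.07 in FL-HER2 (95% interval -0.44 to 0.30) and 0.03 in p95HER2 (interval -0.33 to 0.39), neither called.

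Leukocyte markers differed between constructs in the same direction as Il10ra. At day 10 a set of 8 such markers, Ptprc among them, summed to 447 ± 45.3 CPM with FL-HER2 but 308 ± 72.5 CPM with p95HER2 (SD). At day 22 the sums were 455 ± 62.3 and 366 ± 96.2 CPM. All 8 were lower in p95HER2 at day 10 and 1 of 8 was at day 22. Of 10 macrophage markers, 10 were lower at day 10 and 1 at day 22, and of 9 T cell markers 1 and 7. Among all genes 26.1% were lower at day 10 and 1.54% at day 22. With time in FL-HER2, 8 of the 9 T cell markers rose, against 20.7% of all genes, while Il10ra was not called. With the leukocyte score as a covariate the Il10ra difference was -0.08 at day 10 (adjusted p = 0.617) and -0.22 at day 22 (adjusted p = 0.305). Without the libraries high in skin markers the day 22 difference kept its size but not its call (-0.70, adjusted p = 0.0880).

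**Figure D4:**
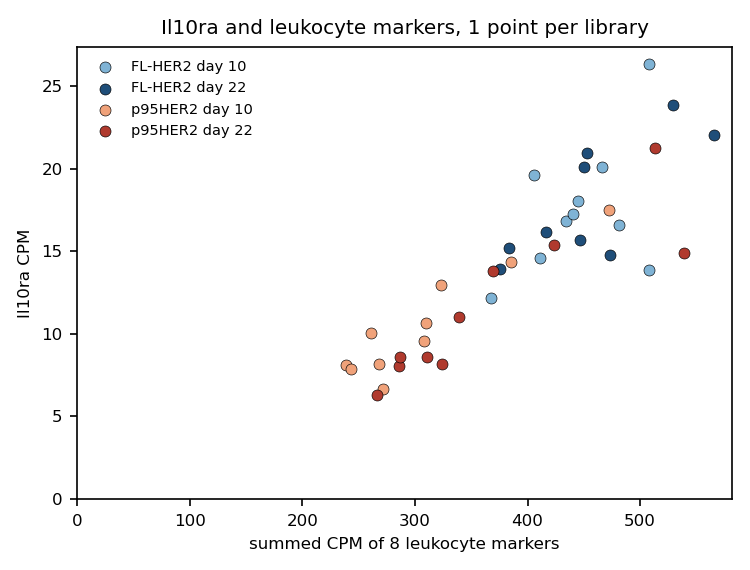
Il10ra CPM (vertical axis) against the summed CPM of 8 leukocyte markers (horizontal axis), 1 point per library, colored by construct and day. Libraries with more leukocyte marker reads have more Il10ra, from 6.31 to 26.4 CPM, and most p95HER2 points sit at the lower left.

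Il10rb, the shared second chain, had the smallest log2 spread of the 4 tested receptor chains within each group and changed with time. In FL-HER2 it ran from 31.7 over 40.1 to 42.3 CPM at day 10, and from 30.8 over 31.6 to 35.9 CPM at day 22. In p95HER2 it ran from 29.6 over 37.2 to 47.8 CPM at day 10, and from 28.5 over 34.3 to 39.7 CPM at day 22. On the deposited log2 scale, 8 of 9 FL-HER2 libraries but 2 of 10 p95HER2 libraries of day 22 lay below every day 10 library of their construct. In CPM the FL-HER2 days overlapped more, with a day 22 median of 31.6 against a day 10 minimum of 31.7. The fall was -0.38 ± 0.06 in FL-HER2 (SE, adjusted p = 1.82e-06) and -0.21 ± 0.06 in p95HER2 (adjusted p = 0.00361). The test of the difference between these falls did not pass (0.17 ± 0.08, adjusted p = 0.155). It passed when p95HER2 day 10 replicate 1, the library with 47.8 CPM, was left out (adjusted p = 0.0404). Without that library the day 10 difference between constructs was also called, lower in p95HER2 (adjusted p = 0.0389), against -0.09 ± 0.06 (adjusted p = 0.207) with it. The fall in p95HER2 was not called without the libraries high in skin markers (-0.21, adjusted p = 0.0826). Per kilobase, Il10rb exceeded Il10ra by a median factor of 2.11 in FL-HER2 and 3.75 in p95HER2 at day 10, and of 1.79 and 3.08 at day 22.

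A term for the digits of the tumor number took the time calls of all 3 chains in FL-HER2: Il20ra to 0.88 (adjusted p = 0.0803), Il20rb to 0.33 (adjusted p = 0.302) and Il10rb to -0.26 (adjusted p = 0.0642). In that fit the FL-HER2 day 10 level rests on the 2 libraries with 3-digit numbers. The p95HER2 changes with time do not involve those libraries.

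Of 5 further members of the family, the cytokines Il22, Ifnl2 and Ifnl3 and the soluble IL-22 decoy Il22ra2 did not pass the filter. Ifnlr1, the chain that pairs with Il10rb to bind lambda interferons, did. It stood at 12.3 ± 2.0 CPM in FL-HER2 and 15.2 ± 2.04 in p95HER2 at day 10, and at 15.8 ± 1.84 and 16.3 ± 1.73 at day 22 (SD). It was higher in p95HER2 at day 10 (0.26 ± 0.08, SE, adjusted p = 0.00765) and rose with time in FL-HER2 (0.25 ± 0.08, adjusted p = 0.00820). The day 10 call was lost with the digits term (0.16, adjusted p = 0.514), with the muscle covariate (0.16, adjusted p = 0.192) and without the libraries high in skin markers (0.21, adjusted p = 0.109). The time call was lost with the digits term (0.15, adjusted p = 0.468).

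Downstream of the receptors, the Janus kinases, STAT factors and their inhibitors were all expressed, and 20 of 20 were tested. At day 10, 3 were higher in p95HER2 (Jak3, Stat3 and Stat6) and 4 lower (Jak1, Stat4, Stat5b and Ptpn6), against 15.2% and 26.1% of all genes. At day 22 Stat6 alone was higher and none lower, against 2.98% and 1.54%. The median log2 difference of the list was -0.04 at day 10 and -0.07 at day 22, against -0.04 and -0.01 over all genes. Jak3, the kinase of the common gamma chain receptors, had 26.7 ± 2.64 CPM in FL-HER2 and 40.7 ± 2.68 in p95HER2 at day 10 (SD), and 27.4 ± 3.58 and 28 ± 4.45 at day 22. Its log2 difference was 0.55 ± 0.08 at day 10 (SE, adjusted p = 2.96e-06) and 0.02 ± 0.09 at day 22. The change of that difference was called (-0.53, adjusted p = 0.00212). Stat3, the main signal carrier of both receptor kinds, was higher in p95HER2 at day 10 (283 ± 15.0 against 232 ± 29.2 CPM, log2 difference 0.24, adjusted p = 0.0112). It fell in p95HER2 with time by 0.68 on the log2 scale, and the change between days was called (-0.37, adjusted p = 0.0152). With a term for tumor number digits the day 10 difference was called for Jak3 (0.56, adjusted p = 0.0140) and not for Stat3 (0.15, adjusted p = 0.518), and neither change between days was called (adjusted p = 0.0998 and 0.373). Without the libraries high in skin markers Stat3 also lost its day 10 call (0.18, adjusted p = 0.156) and its change between days (-0.36, adjusted p = 0.0621).

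With time, 8 of the 20 fell in FL-HER2 and 1 rose, against 30.6% and 20.7% of all genes. In p95HER2 7 fell and 3 rose, against 18.6% and 16.6%. Socs2, an inhibitor of growth hormone and other STAT5 signals, rose by 0.77 in FL-HER2 and 0.72 in p95HER2 (adjusted p = 1.27e-14 and 4.76e-14). Socs3, the feedback inhibitor that STAT3 induces, fell from 166 ± 21.6 to 104 ± 18.1 CPM in FL-HER2 and from 201 ± 28 to 117 ± 13.2 CPM in p95HER2. Its log2 changes were -0.80 and -0.84, both called, and neither construct difference was (0.22, adjusted p = 0.0598 at day 10 and 0.17, adjusted p = 0.368 at day 22). The day 10 difference was called, higher in p95HER2, with the leukocyte covariate (0.40, adjusted p = 0.00543) and with the muscle covariate (0.32, adjusted p = 0.0297).

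Genes that STAT3 is known to induce were tested as a list of 20. Of these, 4 were higher and 2 lower in p95HER2 at day 10, and 5 were higher and 0 lower at day 22 (Osmr, Cebpd, Lcn2, Lrg1 and Hp). Of all genes 15.2% were higher and 26.1% lower at day 10, and 2.98% and 1.54% at day 22. The list's median log2 difference was 0.08 at day 10 and 0.19 at day 22, against -0.04 and -0.01 over all genes. Osmr, the oncostatin M receptor, was higher at both days (0.21, adjusted p = 0.0342, and 0.30, adjusted p = 0.0331). Without the libraries high in skin markers the counts were 1 higher (Hp) and 2 lower at day 10, and 1 higher (Lrg1) at day 22. Osmr was called at neither day. That fit called 1330 of all 13650 genes higher and 2658 lower at day 10, and 179 higher at day 22. With the digits term 0 were higher and 1 lower at day 10, against 531 and 844 of all 13650 genes. With time 12 of the 20 fell in FL-HER2 and 10 in p95HER2 (30.6% and 18.6% of all genes fell), Socs3 among them, while Ccnd1, the cell cycle gene for cyclin D1, rose in both (0.87 and 0.65).

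Of 14 genes known to respond to IL-10 in myeloid cells, 13 were tested. Only Sbno2 was higher in p95HER2 at day 10 and at day 22, and 3 were lower at day 10 (Nfil3, Mrc1 and Il21r) and none at day 22. Over all genes, 15.2% were higher and 26.1% lower at day 10, and 2.98% and 1.54% at day 22. With time 9 of 13 fell in FL-HER2 and 8 of 13 in p95HER2, against 30.6% and 18.6% of all genes, and none rose. Mrc1, the mannose receptor of macrophages, went from 62.8 ± 14.7 to 20.7 ± 6.24 CPM in FL-HER2 and from 41.4 ± 17.4 to 16.4 ± 5.91 CPM in p95HER2 (log2 -1.74 and -1.36, both called). Il4ra, a receptor that also marks this response, fell by 0.96 in FL-HER2 and by 0.56 in p95HER2, and this difference was called (0.41, adjusted p = 0.0414), though not with the digits term (0.36, adjusted p = 0.398), the leukocyte covariate (0.34, adjusted p = 0.0638) or the muscle covariate (0.33, adjusted p = 0.111). Macrophage markers, Mrc1 included, summed to 963 ± 113 CPM in FL-HER2 and 644 ± 170 in p95HER2 at day 10, and to 848 ± 128 and 672 ± 179 at day 22. Their part in these counts was tested only through the leukocyte covariate. With it, 5 of the 13 were higher and none lower in p95HER2 at day 10, against 1173 and 2107 of all 13650 genes.

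Keratinocyte genes known to respond to the IL-20 subfamily were mostly below the filter, with 5 of 16 tested. Of the 5, 4 were higher in p95HER2 at day 10 (S100a8, Krt16, Krt17 and Lcn2) and 4 at day 22 (Krt6a, Krt16, Krt17 and Lcn2), with none lower. Of all genes 15.2% were higher at day 10 and 2.98% at day 22. S100a8 also stands on a list of neutrophil markers, 2 of them tested, where it was higher and Csf3r lower at day 10. Krt6a, a keratin of activated epidermis, had 5.62 ± 3.92 CPM in FL-HER2 and 5.09 ± 2.55 in p95HER2 at day 10, but 0.330 ± 0.313 and 2.05 ± 1.69 at day 22 (SD). Its log2 difference was 2.55 ± 0.44 at day 22 (SE, adjusted p = 0.000202), and the change between days was called (2.65, adjusted p = 0.00251). Krt16, its partner keratin, differed by 2.56 ± 0.43 at day 22 (adjusted p = 0.000115) and by 1.0 ± 0.42 at day 10 (adjusted p = 0.0497). The day 10 call was lost with the leukocyte covariate (0.80, adjusted p = 0.271) and the muscle covariate (0.95, adjusted p = 0.168). It was kept without the libraries high in skin markers (1.27, adjusted p = 0.0177). Krt17, also induced in injured epidermis, was higher by 0.55 at day 10 and 1.14 at day 22. Lcn2, the secreted lipocalin 2, was higher by 0.33 and 0.41, and neither was called without the libraries high in skin markers (adjusted p = 0.181 and 0.147). The 3 keratins fell with time in both constructs, and Lcn2 was not called with time in either. Of 9 mammary epithelium markers, the keratins Krt18, Krt19, Krt7, Krt14 and Krt5 also fell with time in both constructs. Elf5 of the same list rose with time in both, and Epcam rose in p95HER2. Krt7 was higher in p95HER2 at both days and Krt14 at day 22 (not called without the libraries high in skin markers). Krt19 and Elf5 were lower in p95HER2 at day 10, and the change between days was called for Krt14 and Epcam, as for Krt6a. The 9 markers summed to 2437 ± 278 CPM in FL-HER2 and 2632 ± 239 in p95HER2 at day 10, and to 2009 ± 135 and 2300 ± 101 at day 22 (SD), and their part in the response genes was not tested.

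Skin RNA differed between the same libraries. Of 12 epidermis markers, 11 were in the table and 6 were tested. Between constructs 0 of 6 were called at either day, against 41.3% of all genes at day 10 and 4.52% at day 22. The median log2 difference of these 6 still lay toward p95HER2, at 0.89 at day 10 and 0.58 at day 22. Over all genes it was -0.04 and -0.01. Equal skin RNA in the constructs is therefore not shown. The summed level of the epidermis markers ran from 16.8 to 631 CPM in FL-HER2 and from 15.6 to 424 CPM in p95HER2 at day 10. At day 22 it ran from 9.94 to 56.0 and from 18 to 142 CPM. Krt2 was at 0 in all FL-HER2 day 22 libraries. Without the 11 libraries high in these markers, 1 of the 5 response genes was higher at day 10 and 3 at day 22. Krt6a (2.21, adjusted p = 0.00779) and Krt16 (2.12, adjusted p = 0.000900) were among the 3 at day 22. Of all 13650 genes, that fit called 1330 higher at day 10 and 179 at day 22. With a term for tumor number digits, 0 of 5 response genes were called at day 10 and 4 at day 22. Over all 13650 genes the digits fit called 1375 at day 10 and 663 at day 22.

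None of the 4 tested neighbours of Il24 was near 0 in FL-HER2 and present in p95HER2. Of the 10 genes taken, the nearest 5 in the table on each side, 4 were tested: Pigr, AA986860, Mapkapk2 and Dyrk3. Fcmr, which encodes the IgM receptor and begins or ends 1282 bases from Il24, stayed at or below 0.084 CPM on average in each group. Pigr, the transporter of IgA and IgM across epithelia, averaged 56.5 ± 25.8 CPM (FL-HER2) and 48 ± 31.4 CPM (p95HER2) at day 10, and 169 ± 43.4 and 172 ± 40.5 at day 22. It rose with time in both (1.56 and 2.0 on the log2 scale) and was not called between constructs. AA986860 and Mapkapk2 fell with time in both constructs: AA986860 by 0.83 in FL-HER2 and 0.48 in p95HER2 (adjusted p = 1.05e-08 and 0.000142), and Mapkapk2 by 0.32 and 0.20 (adjusted p = 7.95e-06 and 0.00282). Dyrk3 rose in both (0.78 and 0.32). Mapkapk2, a kinase downstream of p38, was not called between constructs at day 10 (-0.11, adjusted p = 0.112) or day 22 (0.01, adjusted p = 0.941). Dyrk3, another kinase, was higher in p95HER2 at day 10 (0.30, adjusted p = 6.18e-05) and AA986860 at day 22 (0.39, adjusted p = 0.0179).

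**Figure D5:**
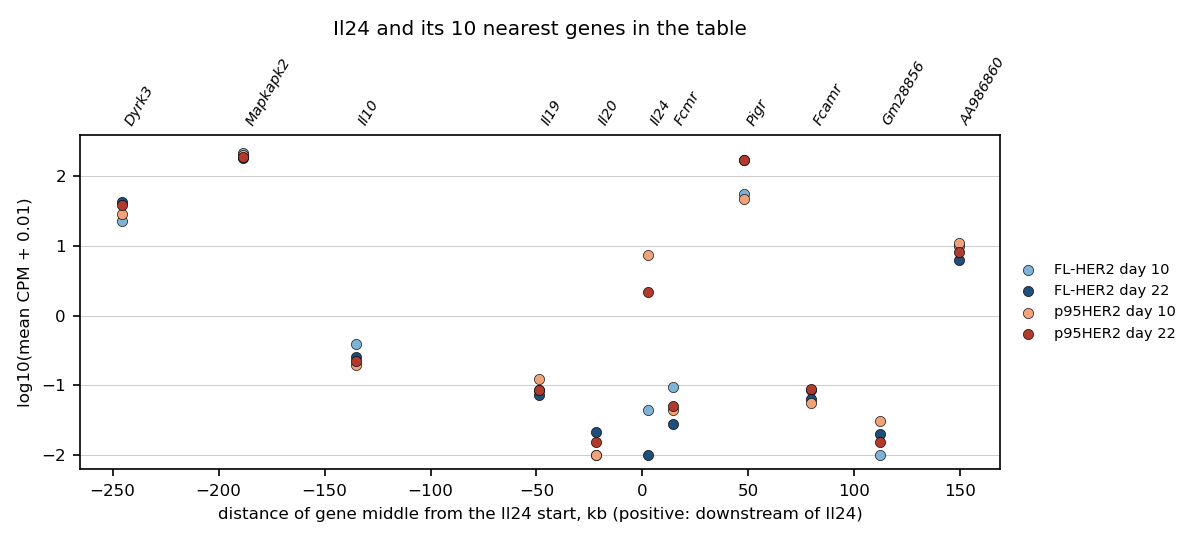
Mean CPM of Il24 and the nearest 5 genes in the table on each side of it, as log10(mean CPM + 0.01) (vertical axis), against the distance of each gene's middle from the Il24 start in kilobases (horizontal axis), with 1 point per group. At Il24 both p95HER2 points stand far above both FL-HER2 points, while at the other genes the 4 points of a gene lie closer together.

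Over all 39 libraries the genes most like Il24 by Pearson's r of log2 values were Wnt7a (r = 0.978), Aqp8 (0.972), Hmga2 (0.970), Gpr149 (0.968) and Dynap (0.959), out of 13047 tested and named genes. The libraries form 2 sets by construct with a gap between them for Il24, so r over all of them mostly ranks genes by that split. Wnt7a, a Wnt ligand, had 0 reads in all FL-HER2 libraries and 2.08 ± 0.662 CPM at day 10 and 0.845 ± 0.350 at day 22 in p95HER2. Hmga2, a chromatin protein of embryonic tissue and tumors, had 45.2 ± 7.78 CPM at day 10 and 13.9 ± 5.01 at day 22 in p95HER2, with at most 0.584 CPM on average in FL-HER2. Il20ra had r = 0.34 with Il24 by this measure and Il10ra r = -0.63.

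Within p95HER2, over deviations of 20 libraries from their group means, another set of genes was most like Il24: Capg (r = 0.901), Gsto1 (0.877), Isg20 (0.877), Upp1 (0.868) and Acsbg1 (0.840). The likeness of Capg, an actin capping protein, was present in both groups (0.876 at day 10 and 0.947 at day 22). Capg was well expressed in FL-HER2 too, at 119 ± 11.5 CPM at day 10 and 72.3 ± 8.70 at day 22, against 129 ± 16.4 and 80.6 ± 11.5 in p95HER2. At day 10 Upp1, a uridine phosphorylase, stood at 6.26 ± 1.04 CPM with FL-HER2 and 12 ± 3.23 CPM with p95HER2. None of the 4 receptor chains was close to Il24 by this measure: Il20ra had r = -0.35, Il20rb -0.29, Il10ra 0.26 and Il10rb 0.15. These values have no p and share libraries, depth and tissue makeup.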

How the data were processed

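The 39 directional poly(A) libraries were grouped by the construct and day in their labels. Replicate numbers are names only. The submitters' processing notes name STAR 2.4.2a, the mm10 build and DESeq2. The sources used here do not give the read counter or its strand setting. The authors' deposited table holds log2 values, found from the values to be log2 of the read count scaled by 1 factor per library, plus 1. After undoing the log2, 100% of values were whole reads (tolerance 0.001 reads), and CPM was computed from these. Counts of libraries lying above or below another group were taken on the deposited log2 values, whose scaling differs from CPM. No 2 libraries were identical.

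Genes that reached 1 CPM in 9 or more libraries were tested on the deposited log2 values with limma 3.58.1 (trend) in R 4.3.3, over all 39 libraries with 1 coefficient per group and 5 contrasts, two-sided, with calls at an adjusted p (Benjamini-Hochberg, all genes tested) under 0.05. The fit was tested on simulated data. A fold change on this scale understates that of low genes. The plan had assumed deposited CPM, so the built-in pseudocount of 1 was kept. Levels between genes are per kilobase of GENCODE M21 exon.

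The members and lists were chosen with earlier results of these data known. Names in the text follow a rule: all 9 members, up to 4 members per list with the smallest adjusted p, the 5 genes most like Il24 by each measure, and 5 neighbours on each side. Called members of lists beyond these 4 are named as such after their values were seen. Alternatives were other pseudocounts (0.1 and 5), filters (none and 5 CPM) and scalings, library weights, a fit on only the groups compared, marker covariates, leaving out libraries high in skin markers (mean log2 value of the tested markers of 6 or more), a digits term, leaving out each library and, chosen after seeing the data, voom.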

Additional observations from a re-analysis of the deposited data

Results flagged for a closer look

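For Il20, 2 values stood far from the rest of their group, among 33 groups of values checked. The rule sets the gap to the next value against the range, with a cutoff meant to mark about 1 in 20 by chance. Where all other libraries are at 0, any 1 value above 0 is flagged, so that rate does not hold here. In FL-HER2 day 22 replicate 8 Il20 was at 0.101 CPM (3 reads), while the other libraries of the group were at 0. In p95HER2 day 22 replicate 9 it was at 0.0569 CPM (2 reads), again with all others at 0. Both rest on a few reads, and neither library stood apart from its group in this way for the other 8 genes.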

How the results depend on the processing

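The fall of Il24 in p95HER2 tumors kept its direction and its call under all 13 alternatives that could be fitted (-1.92 to -1.64, adjusted p 2.40e-06 to 0.0276). At day 10, 2 receptor chains were called between constructs. This became 1 with the 5 CPM filter, the muscle covariate, the digits term or without the libraries high in skin markers, 0 with the leukocyte covariate, 3 with library weights (Il10rb, lower) or no filter (Il10, lower), and 2 to 3 leaving out each library. At day 22 the count of 1 became 2 with library weights and 0 with the leukocyte covariate or without the libraries high in skin markers, and stayed 1 leaving out each library. The FL-HER2 time count of 3 became 0 with the digits term and 2 with the 5 CPM filter. A pseudocount of 0.1 and library weights also called Il24, which rests on 12 reads there and is not counted. The p95HER2 time count of 4, which includes Il24, became 2 with the 5 CPM filter, which drops Il24 and Il20ra. It became 3 without the libraries high in skin markers. The count for the change between days, 0, became 1 with library weights or without p95HER2 day 10 replicate 1. Calls over all 13650 genes moved too. At day 10 they went from 5636 to 3988 without the libraries high in skin markers and 1375 with the digits term. The leukocyte covariate gave 3280 there and the muscle covariate 3229. At day 22 they went from 617 to 228 without those libraries and 241 with the leukocyte covariate. The digits term took FL-HER2 time calls from 7011 to 2953. Library weights raised calls to 7023 at day 10 and 1418 at day 22.

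Signs turned only for values that were not called. Quantile normalization gave 0.0020 for Il20rb at day 10, 0.069 for Il10ra with time in FL-HER2 and -0.012 for the change of Il10ra. Library weights gave -0.068 for Il20rb at day 22, -0.032 for Il10ra with time in p95HER2 and 0.025 for the change of Il20ra. The muscle covariate gave -0.015 for Il20rb at day 22, 0.064 for Il10ra with time in FL-HER2 and -0.041 for its change. The leukocyte covariate gave -0.034 for Il20rb at day 22, 0.11 and -0.031 for Il10ra with time in FL-HER2 and p95HER2, -0.14 for its change and 0.041 for the change of Il20ra. Without the libraries high in skin markers Il20rb was at -0.020 at day 22 and the change of Il20ra at 0.041. The digits term gave 0.033 for Il10rb at day 10. Leaving out each library moved Il20rb at day 22 from -0.061 to 0.069, Il10ra with time in p95HER2 from -0.077 to 0.12, and the changes of Il20ra and Il10ra from -0.16 to 0.071 and from -0.0073 to 0.19. The cause was not tested.

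Quantile normalization moved the median log2 difference of all genes by 0.108 at day 10 and 0.114 with time in FL-HER2, and the share of higher among called genes at day 10 from 36.7% to 63.4% (49.1% with median-of-ratios factors). No paired analysis was possible because the labels carry no replicate numbers shared between groups. The count-model alternative was not run, since the table holds log2 values. Depth limits Il19, Il20, Il10 and Il22ra1, whose 340 reads at most over all libraries allow no comparison of small differences, and a fit on only 2 groups gives no value for the change between days.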
